A study of Mus musculus with 11 samples.

Results

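The 32 nuclear genes described here encode subunits of the 5 enzyme complexes of oxidative phosphorylation: 12 of complex I, 4 of complex II, 4 of complex III, 7 of complex IV and 5 of complex V. They were listed by gene symbol as subunits of these complexes, and all 32 were found among the 48709 mouse genes counted and among the 14757 genes tested. Bulk RNA was taken from the aortic arch of mice at postnatal day 11. The Het group (n = 6) carried 1 copy of the Tgfbr2-G357W allele, which changes a residue of the type II receptor for transforming growth factor beta and models type II Loeys-Dietz syndrome. The WT group (n = 5) were littermates with 2 unaltered copies (Tgfbr2+/+), no animal was treated, and the labels give neither sex nor strain.

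Oxidative phosphorylation takes place in the inner mitochondrial membrane. Complexes I and II pass electrons from NADH and succinate to ubiquinone, complex III passes them to cytochrome c, complex IV passes them to oxygen, and complex V makes ATP from the proton gradient that complexes I, III and IV build. Most subunits are made from nuclear genes and imported, whereas a small set is made inside the organelle from mitochondrial DNA. Brown adipocytes, which surround the thoracic aorta in rodents, hold the electron-passing complexes I to IV at very high levels.

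Promoter sequence was looked at because genes of the pathway share regulators. RefSeq (GRCm38.p6) gave 26 promoters for 23 of the 32 genes, each with 250 bases before the start of transcription and 50 after it, and both strands were searched. GCATGCGC, an element bound by NRF1, a regulator of respiratory genes, was in Sdhb and Uqcrc1 and in 2.71% of the 32851 promoters of the table. AAGATGGCG, bound by YY1, was in Ndufs4 and in 1.40% of all promoters. CCGGAAG, bound by ETS factors, was in Ndufs3, Sdhb and Sdhd and in 8.86% of all, and AAGGTCA, bound by the oestrogen-related receptors, was in Sdhd and in 4.72% of all. Another element, ACTACANNT, the start of the site bound by ZNF143, was chosen after these promoters had been read, and 3 other spellings of it were tried, which 1.81% to 4.43% of all promoters held. It was in 6 of the 26 promoters, from Atp5d, Atp5o, Cox7b, Cox7c and Ndufv1, and in 4.16% of all promoters. The other spellings share bases with ACTACANNT and match the same stretch in the runs shown, so they are not separate matches. The runs below are 30 bases long, read on the strand of the gene, with the element in capitals.
Sdhb (chr4:140961206-140961235, plus strand, GCATGCGC, 54 bases before the start): aagcccagtggGCATGCGCcctacgggccg
Atp5d (chr10:80142183-80142212, plus strand, ACTACANNT, 82 bases before the start): ggcgaagaaaACTACAATTcccagaatgac
Atp5o (chr16:91931696-91931725, minus strand, ACTACANNT, 85 bases before the start): gcaggtacggACTACAACTcccagcatgca
Cox7b (chrX:106015608-106015637, plus strand, ACTACANNT, 82 bases before the start): caagcttgaaACTACATTTcccaaagacct
Cox7c (chr13:86046897-86046926, minus strand, ACTACANNT, 121 bases before the start): ctagagccagACTACATTTcccacaatcca
Ndufv1 (chr19:4012841-4012870, minus strand, ACTACANNT, 105 bases before the start): ggcaagctggACTACATCTcccagaaggcc
These 5 genes include those with the 2 highest log2 fold changes of the 32, Cox7c and Cox7b, and those with the 2 lowest, Atp5d and Ndufv1, none of which passed the test. The element was chosen after promoters of 23 of the 32 genes had been read. A link between it and the fold changes was not tested. A match is a run of letters, and binding was not measured.

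The 11 libraries held between 13113467 and 19327935 counts, so 3 counts correspond to between 0.154 and 0.231 CPM (counts scaled to the library total). Tgfbr2 itself ranged from 38.3 to 48.8 CPM in WT and from 30.9 to 51.4 CPM in Het (log2 fold change -0.085, edgeR quasi-likelihood adjusted p = 0.79). Counts per gene do not read the substituted base and so do not check the genotype. Vascular smooth muscle and endothelium are the cells that the labels list. The 8 smooth muscle markers summed to between 30470 and 41500.0 CPM and the 8 endothelial markers to between 378 and 636 CPM. In Het 1 of the 8 smooth muscle markers and 1 of 8 fibroblast markers were called lower, beside 2.38% of all tested genes. Of the endothelial markers 0 were called. Of all genes tested, 742 passed an adjusted p of 0.05, which is 5.03%. Xist reached 100 counts in each of the WT libraries and in Het 1 and 2, but not in Het 3 to 6, so the Xist-positive libraries were spread unevenly over the groups. On the first principal component, which held 25.8% of the variance, every WT library lay below every Het library, Het 1 and 2 included. WT 1 and WT 2 were the lowest on this component and stood apart from the other WT libraries. In bulk tissue, fewer cells of a type and less RNA per cell cannot be told apart.

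The nuclear genes of the respiratory chain showed no difference between Het and WT that passed the test. Of the 32 genes, 0 were higher and 0 lower at an adjusted p of 0.05 (edgeR quasi-likelihood F test, Benjamini-Hochberg), where 2.65% of all tested genes were higher and 2.38% lower. At an unadjusted p of 0.05, 2 genes passed, Cox7c and Sdhc, beside 19.4% of all genes. DESeq2 and limma also called 0 of the 32. The log2 fold change was positive for 18 genes and negative for 14, between -0.23 and 0.34, with a median of 0.0046 beside -0.0046 for all tested genes. The 2 groups overlapped for each of the 32 genes, where they did not overlap for 4.61% of all genes.

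A difference larger than 1.5-fold lay outside the 95% interval of the fold change for 30 of the 32 genes, as for 50.5% of all genes. The exceptions were Cox7c and Cox7b, whose intervals reached 1.53-fold and 1.65-fold higher in Het. The median standard error of the log2 fold change was 0.12 for the 32 genes and 0.17 for all genes. Together the 32 genes took between 0.714% and 1.14% of the counts of a library.

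**Figure D1:**
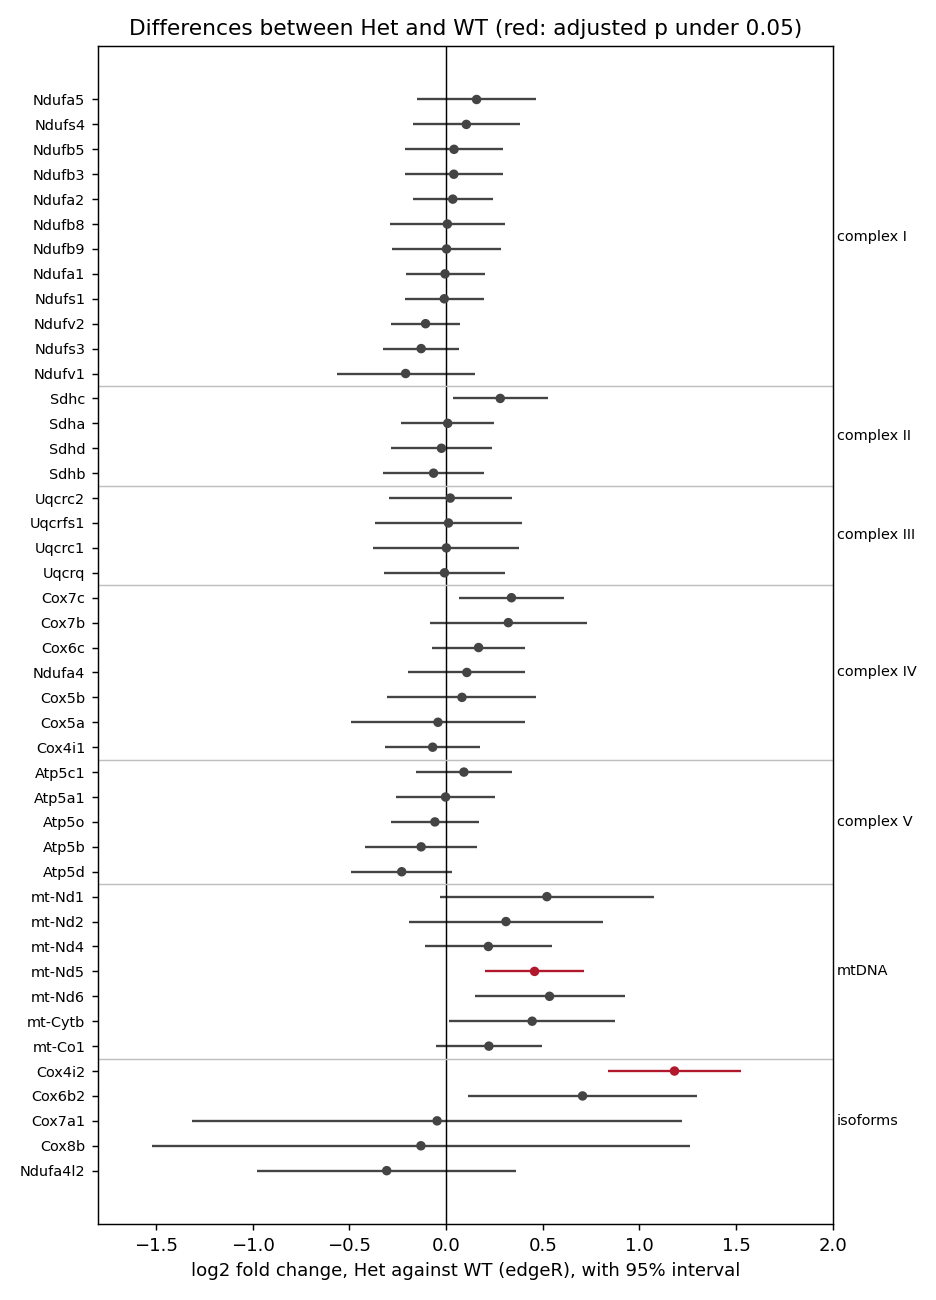
Log2 fold change of Het against WT (x axis, points) with its 95% interval (lines) for the 32 nuclear genes by complex, the 7 tested genes of mitochondrial DNA and 5 subunit isoforms of restricted tissues; red marks an adjusted p under 0.05. The 32 nuclear genes lie between -0.23 and 0.34, and the red points are mt-Nd5 at 0.46 and Cox4i2 at 1.18.

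Complex I, which oxidises NADH, was represented by 12 genes with a median log2 fold change of 0.0046 and adjusted p between 0.49 and 1.00 (edgeR). Ndufa5, an accessory subunit of its peripheral arm, had the highest value of the 12. It stood at 216, 201, 303, 292 and 358 CPM in WT 1 to 5 and between 257 and 387 CPM in Het, with a median of 306. WT 1 and WT 2 were below every Het library and the other WT libraries lay within the Het range, with Het 6 highest. The log2 fold change was 0.16 ± 0.14 (SE; adjusted p = 0.61, edgeR). Ndufv1, the subunit that binds NADH and flavin, had the lowest value of the 12. It stood at 251, 248, 253, 243 and 376 CPM in WT 1 to 5 and between 178 and 317 CPM in Het, with a median of 223. The WT libraries other than WT 5 lay close together, and Het 4, 5 and 6 were below them while Het 2 and 3 were above. This gave a log2 fold change of -0.21 ± 0.17 (adjusted p = 0.55, edgeR). Ndufb9, an accessory subunit, was among the 3 highest of the 32 genes per length of exon, with 721 CPM per kb in WT and 722 in Het. In counts not scaled by length it ranged from 393 to 671 CPM in WT and from 419.6 to 570.2 CPM in Het, and its log2 fold change was 0.0024 ± 0.13.

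Complex II, succinate dehydrogenase, links the citric acid cycle to the chain and has 4 subunits, all made from nuclear genes. Sdhc, 1 of the pair of subunits that anchor it in the membrane (ENSMUSG00000058076, chr1:171127165-171150603, GRCm38), stood at 76.2, 68.8, 88.7, 82.8 and 106 CPM in WT 1 to 5 and between 84.2 and 117 CPM in Het, with a median of 107. In 4 of 6 Het libraries it was above every WT library, and Het 4 and 5 lay among the WT values. Its log2 fold change was 0.28 ± 0.12 (unadjusted p = 0.029, adjusted p = 0.19, edgeR). Sdhb, which carries the iron-sulphur clusters and whose promoter run is shown above, had the lowest value of the complex. It stood at 427, 436, 446, 454 and 623 CPM in WT and between 356 and 522 CPM in Het, with a median of 478. Its Het libraries lay on both sides of WT 1 to 4, and WT 5 was the highest of all 11. Its log2 fold change was -0.065 ± 0.12 (adjusted p = 0.83, edgeR).

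Complex III, the cytochrome bc1 complex, had the narrowest range of log2 fold changes. Its 4 genes lay between -0.0082 for Uqcrq and 0.022 for Uqcrc2, with adjusted p from 0.96 to 1.00 (edgeR). Uqcrc2, a core subunit, stood at 206, 226, 241, 249.5 and 367 CPM in WT and between 202 and 328 CPM in Het, with a median of 262. Uqcrq, a small subunit, stood at 263, 231, 271, 257 and 390.2 CPM in WT and between 214 and 345 CPM in Het, with a median of 294. For both, WT 5 was the highest library and the groups covered almost the same range. Their standard errors, both 0.15, were larger than the differences.

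Complex IV, cytochrome c oxidase, held the pair of genes with the highest log2 fold changes of the 32, and the median of its 7 genes was 0.11. Cox7c, a small subunit (ENSMUSG00000017778, chr13:86044816-86046904), stood at 75.4, 68.9, 93.9, 92.2 and 112 CPM in WT 1 to 5 and between 93.8 and 140.1 CPM in Het, with a median of 111. In 3 of 6 Het libraries it was above every WT library, and WT 1 and WT 2 were the lowest 2 of the 11. The log2 fold change was 0.34 ± 0.13 (95% interval 0.066 to 0.61, unadjusted p = 0.018, adjusted p = 0.15, edgeR). With a skeletal muscle score as covariate it was 0.74 and passed the test (adjusted p = 0.028, edgeR). In that fit 1 of the 32 genes was higher, beside 1.2% of all genes. The score itself was 1.45 to 2.08 in WT and 0.903 to 1.56 in Het, so it partly stands for the group. Without WT 5 the adjusted p of Cox7c was 0.055 (edgeR).

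Cox7b, a subunit made from the X chromosome (chrX:106015700-106022450), stood at 110.2, 111, 179.6, 189 and 243 CPM in WT 1 to 5 and between 167 and 257 CPM in Het, with a median of 213. WT 1 and WT 2 lay well below the other 9 libraries, which overlapped. This gave a log2 fold change of 0.32 ± 0.19 (adjusted p = 0.38, edgeR). Ndufa4, first described with complex I and since placed in complex IV, was second among the 32 genes per length, with 744 CPM per kb in WT and 802 in Het. Its log2 fold change was 0.11 ± 0.14 (adjusted p = 0.75, edgeR).

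Complex V, ATP synthase, had 1 gene with a positive log2 fold change and 4 with a negative one. Atp5d, the delta subunit of its rotor stalk (ENSMUSG00000003072, chr10:80138632-80145818), stood at 189.9, 211, 221, 174 and 199.7 CPM in WT 1 to 5 and between 131 and 216 CPM in Het, with a median of 163. Het 4, 5 and 6 were below every WT library, and Het 1, 2 and 3 lay within the WT range. The log2 fold change was -0.23 ± 0.12 (95% interval -0.49 to 0.032, adjusted p = 0.33, edgeR). Atp5c1, the gamma subunit of the same stalk, stood at 412, 452, 563, 570.3 and 675 CPM in WT and between 484 and 627 CPM in Het, with a median of 588. Its Het libraries lay inside the WT range, and the log2 fold change was 0.092 ± 0.12 (adjusted p = 0.73, edgeR).

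As a sum, the 32 genes varied more between libraries of 1 group than between the groups, and they varied together. The sum was 8778 ± 1422 CPM in WT and 8810 ± 1142 CPM in Het (SD). The spreads were not compared gene by gene. WT 5 was the highest of the 11 libraries for 23 of the 32 genes, beside 9.77% of all tested genes, and it was above the gene's own mean for all 32. The median deviation of the 32 genes from their own means was 0.34 on the log2 scale in WT 5, or 1.27 times the mean. Het 4 and Het 5 were below the mean for all 32 genes, with median deviations of -0.20 and -0.26. Het 1, 2 and 3 were each above both Het 4 and Het 5 for 32 of 32 genes, as for 13.7% of all tested genes. These groupings of libraries were chosen after the values were seen.

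The lowest libraries differed between members. Het 4 and Het 5 were the lowest 2 of the 11 for 14 genes, among them Cox4i1, Cox5a, Atp5b, Atp5d, Ndufv1 and Uqcrfs1, beside 2.68% of all tested genes. WT 1 and WT 2 were the lowest 2 for 11 other genes, among them Cox7b, Cox7c, Cox6c, Ndufa4, Ndufa5 and Sdhc, beside 9.14% of all tested genes. Without WT 1 and WT 2, the median log2 fold change of the 32 genes was -0.12 and 4 of them were positive, with 0 called. Without WT 5 it was 0.13 and 26 were positive, again with 0 called. With the sex score as covariate it was 0.15 and 29 were positive, with 0 called. Only Het libraries were Xist-negative, so that fit compared WT mainly with Het 1 and Het 2 and cannot fully separate the score from the group. The sign of the median was negative in some of the fits that left libraries out and positive with every covariate tried.

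**Figure D2:**
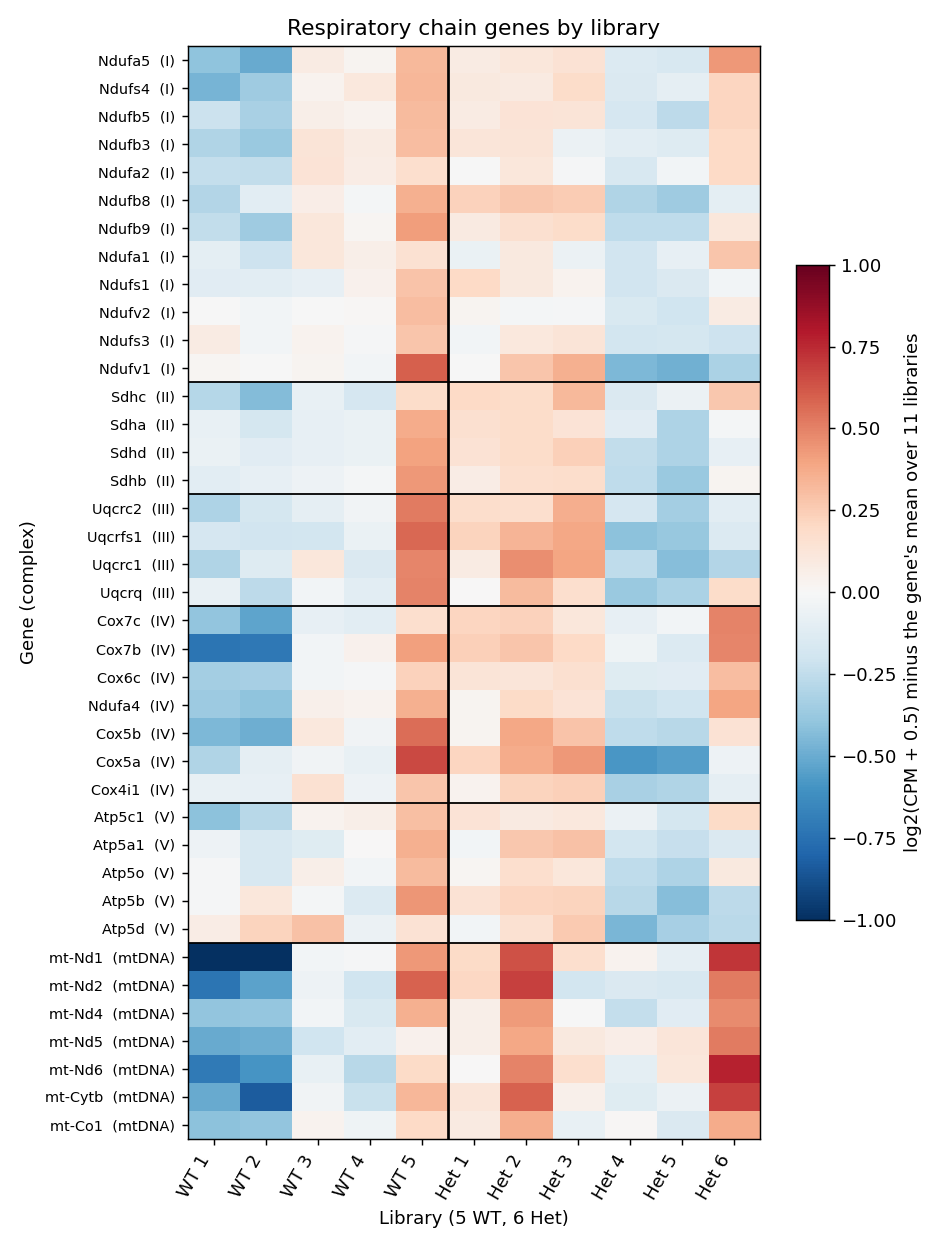
Heat map of log2(CPM + 0.5) minus the gene's mean over the 11 libraries (colour, red above and blue below the mean) for the 32 nuclear genes, by complex, and 7 genes of mitochondrial DNA (rows) in each library (columns, WT left of the line). WT 5 is above the mean for all 32 nuclear genes, Het 4 and Het 5 are below it for all 32, and WT 1 and WT 2 are lowest for all 7 mitochondrial genes.

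The brown adipocyte markers Ucp1 and Cidea were highest and lowest in the same libraries as the summed 32 genes. Ucp1, the uncoupling protein of brown fat, stood at 518, 453, 414, 461 and 1437 CPM in WT 1 to 5. In Het 1 to 6 it stood at 729, 1283, 1031, 189, 147 and 578 CPM. The library with the highest Ucp1 was WT 5, and those with the lowest were Het 4 and Het 5. Among WT 1 to 4 the order differed: WT 3 had the lowest Ucp1 of these while the median deviation of the 32 genes there was 0.031, against -0.23 in WT 1 and -0.18 in WT 2. Cidea, a lipid droplet protein of brown adipocytes, was 963.5 CPM in WT 5 and 139 and 112 CPM in Het 4 and 5. The list had 8 markers, of which 7 were tested and Zic1 was at or under 0.074 CPM in WT and Het alike, and its sum was 699.8 to 2435 CPM in WT and 284 to 1872 CPM in Het. Not every marker had this order: Ppargc1a was highest in Het 3 and lowest in WT 2, and Adrb3 was highest in Het 2. The difference in Ucp1 between the groups did not pass the test, with a wide 95% interval of 0.396-fold to 2.55-fold (log2 fold change 0.0062 ± 0.60, adjusted p = 1.00, edgeR). Of the 7 tested markers, 4 had positive log2 fold changes and 1 was called higher in Het, beside 2.65% of all tested genes. This was Dio2, the deiodinase that activates thyroid hormone (log2 fold change 1.15, adjusted p = 0.025, edgeR). It passed in 20 of 27 alternative analyses, and the highest adjusted p among the others was 0.091. Dio2 ranged from 5.01 to 7.84 CPM in WT, with WT 5 lowest, and from 6.77 to 24.4 CPM in Het.

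With the mean log2 level of the 7 tested markers as a covariate, the median standard error of the 32 genes fell from 0.12 to 0.094, while that of all genes went from 0.169 to 0.166. The median log2 fold change of the 32 genes was then 0.016, 0 were called, and the lowest adjusted p was 0.089, for Sdhc (edgeR). The heart and muscle isoforms Cox7a1 and Cox8b, also abundant in brown fat, followed the markers: Cox8b was 206 CPM in WT 5 and 16.9 and 22.7 CPM in Het 4 and 5. Among the other gene lists, the summed level of the highest library was 1.79 times that of the lowest for the 18 genes of the citric acid cycle and pyruvate dehydrogenase. It was 1.13 times for the 11 mitochondrial carriers and outer membrane proteins and 1.13 times for the 42 tested assembly factors of the complexes. This ratio was 1.52 for the 32 genes themselves and 2.54 for the subunits made from mitochondrial DNA. For further subunits of complex I, of III and IV with cytochrome c, and of V it was 1.43, 1.74 and 1.45.

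**Figure D3:**
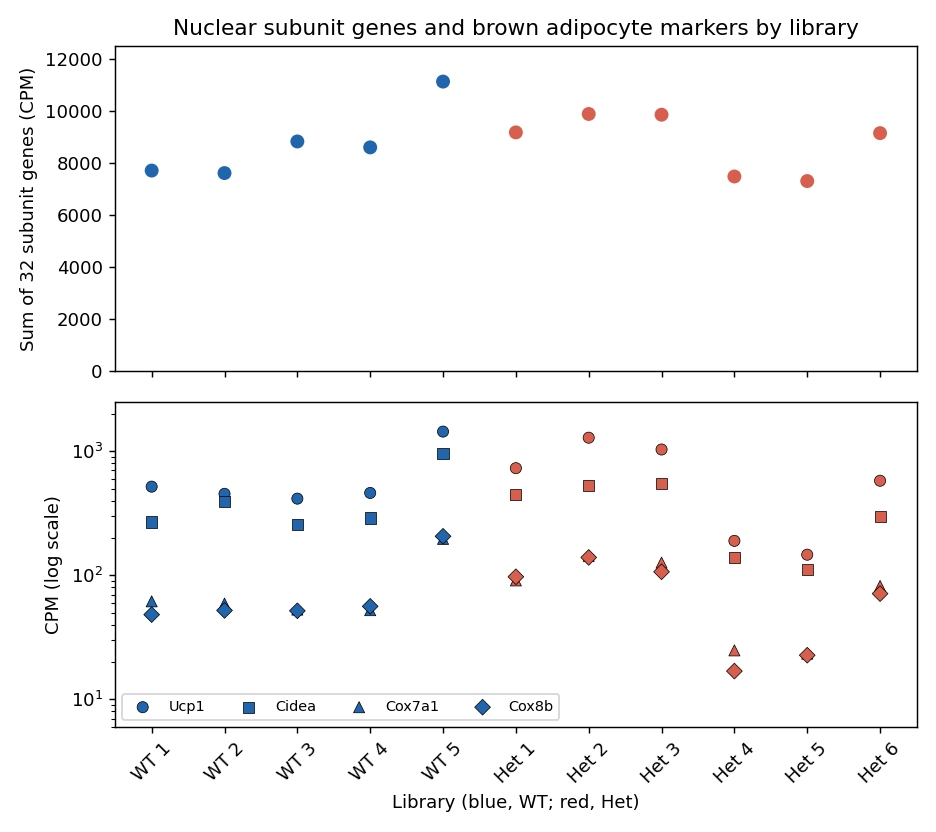
Sum of the 32 nuclear genes in CPM (upper panel, linear axis from 0) and CPM of Ucp1, Cidea, Cox7a1 and Cox8b (lower panel, log axis) in each library, with WT in blue and Het in red. WT 5 is highest and Het 4 and Het 5 are lowest for the sum, and Ucp1 is 1437 CPM in WT 5 and 189 and 147 CPM in Het 4 and 5.

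The other nuclear genes of the pathway gave no call either. Of 24 further complex I subunits, 11 further genes of complexes III and IV with cytochrome c and 12 further complex V subunits, 0 were called. The genes with the smallest p in these lists were Ndufb6 (log2 fold change -0.24, adjusted p = 0.22), Cox6a1 (0.22, adjusted p = 0.51) and Atp5e (0.31, adjusted p = 0.34; all edgeR). Of 43 assembly factors, which build the complexes, 42 were tested and 0 were called, and Sdhaf3, needed to mature Sdhb, averaged 14.1 ± 1.51 CPM (SD) in WT libraries and 10.3 ± 1.12 CPM in Het libraries (log2 fold change -0.45, adjusted p = 0.061, edgeR). None of 19 genes of mitochondrial biogenesis and mitochondrial DNA expression was called, with Nrf1 at a log2 fold change of -0.26 (adjusted p = 0.22) and the coactivator Ppargc1a at 0.064 (adjusted p = 0.91, edgeR). None of the 18 citric acid cycle genes was called, Suclg2, a subunit of succinyl-CoA ligase, being nearest at -0.39 (adjusted p = 0.070, edgeR). Of the 11 carriers and outer membrane proteins, 0 were called, and Vdac2 had the smallest p at -0.16 (adjusted p = 0.26, edgeR).

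Of the subunits made from mitochondrial DNA, 1 of 7 tested was higher in Het and 0 were lower, beside 2.65% and 2.38% of all tested genes. Of the 13 such genes, 6 had 0 counts in every library. These 6 lie side by side between mt-Co1 and mt-Nd4, which stood at 486 to 836 CPM and 112 to 204 CPM over the libraries. The reason for the zeros was not tested, and they do not show that these genes were silent. mt-Nd5, a membrane subunit of complex I (ENSMUSG00000064367), stood at 72.7, 73.7, 89.9, 96.3 and 107 CPM in WT 1 to 5 and between 108 and 149 CPM in Het, with a median of 112. Every Het library was above every WT library, by a small margin over WT 5. It rose from 87.9 ± 14.7 to 121 ± 17.3 CPM (SD), a log2 fold change of 0.46 ± 0.12 (adjusted p = 0.037, edgeR). The other 6 had positive log2 fold changes between 0.22 and 0.53 and did not pass. WT 1 and WT 2 were the lowest 2 libraries for all 7, and leaving out both gave mt-Nd5 a difference of 0.30 on the log2 scale (adjusted p = 0.19, edgeR). It also missed the threshold on leaving out any 1 of WT 1, 2 and 3 or of Het 2, 5 and 6 (adjusted p 0.055 to 0.10). It passed in 16 of 27 alternative analyses in all. It missed also with the replicate number as a block, with the sex score (adjusted p = 0.30), in the Xist-positive libraries alone (adjusted p = 0.42) and with the column number as covariate (adjusted p = 0.073, edgeR). With the skeletal muscle score as covariate all 7 passed, where 1.2% of all tested genes were higher. That score was 1.45 to 2.08 in WT and 0.903 to 1.56 in Het. Of its 5 tested markers, 2 were called lower in Het, beside 2.38% of all tested genes. The fit therefore cannot separate the score from the group. Het 6 was the highest library for 6 of the 7, beside 12.1% of all tested genes. The direction was tested in each gene alone, and the difference between nuclear and mitochondrial genes was not tested.

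Among the isoforms that replace common subunits in some tissues, Cox4i2 rose and the common form did not pass the test. Cox4i2, an isoform of subunit 4 found in lung and vessel wall cells (ENSMUSG00000009876, chr2:152754173-152765037), stood at 5.83, 8.44, 8.47, 10.3 and 7.92 CPM in WT 1 to 5. It was between 14.9 and 22.0 CPM in Het, with a median of 19.7. All 6 Het libraries were above all 5 WT libraries, and Het 4 and Het 5, low for the 32 genes, were not low here. The fold was 2.27 (95% interval 1.79 to 2.88; log2 fold change 1.18 ± 0.16, adjusted p = 4.91e-04, edgeR). It passed in 26 of 27 alternative analyses, with log2 fold changes between 1.06 and 1.28, and missed in the 7 Xist-positive libraries alone (1.18, adjusted p = 0.09).

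Cox4i1, the common isoform and the highest of the 32 genes per length, stood at 707, 704.9, 826, 717 and 901 CPM in WT and between 595 and 879 CPM in Het, with a median of 731. The groups overlapped over most of their range (log2 fold change -0.069 ± 0.12, adjusted p = 0.81, edgeR). Per length of exon, Cox4i2 made up between 0.794% and 1.37% of the 2 isoforms in WT and between 1.86% and 3.16% in Het, so Cox4i1 held nearly all of subunit 4 transcripts in both groups. For Cox6b2, an isoform known from testis, the log2 difference was 0.71 (adjusted p = 0.17, edgeR), and Ndufa4l2, a hypoxia-induced relative of Ndufa4, had one of -0.31 (adjusted p = 0.66, edgeR).

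**Figure D4:**
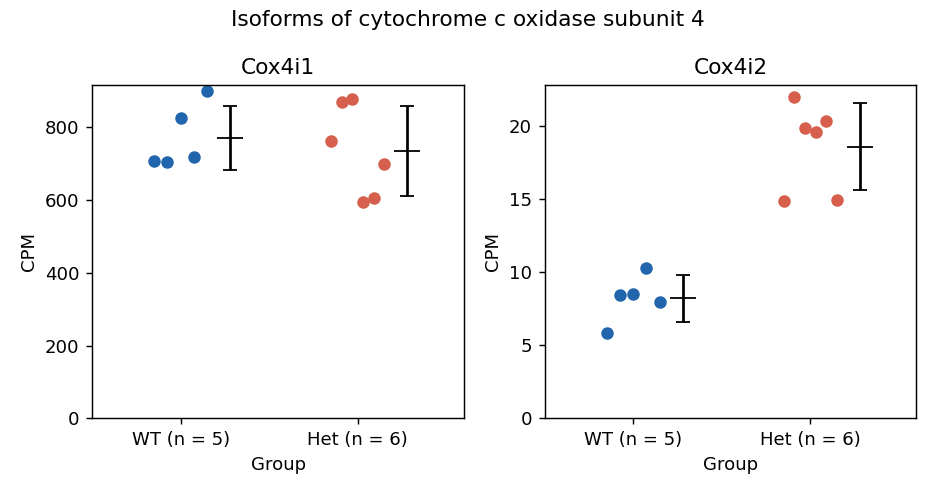
CPM of Cox4i1 (left) and Cox4i2 (right) in each WT (blue) and Het (red) library, with the group mean and SD in black; both axes start at 0. Cox4i1 overlaps between the groups, while the 6 Het libraries lie between 14.9 and 22.0 CPM for Cox4i2, above the 5 WT libraries.

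Other markers moved between the groups beside Cox4i2 and mt-Nd5. The 12 skeletal muscle fibre markers, of which 5 were tested, summed to 24.7 to 44.6 CPM in WT and 13.2 to 21.7 CPM in Het, without overlap. Tnnt3 made up most of the sum (27.0 ± 8.33 CPM in WT and 8.77 ± 2.56 CPM in Het, SD). Tnnt3 and Tnni2 were called lower in Het, 2 of the 5 tested markers beside 2.38% of all tested genes. Neither passed with the sex score as covariate or in the Xist-positive libraries alone. The other 3 tested markers had positive log2 fold changes that did not pass, 0.55 for Acta1, 0.34 for Myoz1 and 0.068 for Mylpf, and the median of the 5 was 0.068. The fibre myosins Myh1, Myh2, Myh4 and Myh8 were each under 0.36 CPM or listed at 0. Of 10 cell cycle genes 9 were called higher in Het, beside 2.65% of all tested genes. The sum of the 10 was 128 to 265 CPM in WT and 246 to 355 CPM in Het. The 5 red blood cell markers summed to 668 to 1568 CPM in WT and 378 to 908 CPM in Het, with 0 called. Their part in these results was not tested.

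The library kit was unstranded, so reads from genes that overlap cannot be told apart. Exons of Atp5o, Cox5a, Ndufb9 and Uqcrc2 share 48.6%, 41.7%, 28.6% and 26.6% of their length with other annotated genes, so their counts are uncertain. Pseudogenes named after Atp5c1 and Cox5b are annotated or counted as well, and the counting could have split reads of these genes.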

How the data were processed

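RNA from aortic arches of 5 WT and 6 Het mice was made into unstranded Nextera XT libraries and read as single 75 nt reads, pooled over separate runs, per the labels' protocols. STAR 2.5.2a, DESeq2, edgeR, limma and GRCm38 are named in the submitters' processing notes; which counter and annotation were used is not given in the sources used here. Deposited raw counts, whole numbers per gene made by the authors, were used; 24 rows of control sequences (4 to 11 counts per library) were left out. A deposited signal, TMM-scaled CPM made by the authors, served for 2 alternatives. Genes passing filterByExpr (minimum count 10, total 15) were scaled by TMM (0.979 to 1.031). The test was the quasi-likelihood F test of edgeR 4.0.16 with robust dispersions, at an adjusted p of 0.05, in R 4.3.3, with limma 3.58.1 and DESeq2 1.42.0 as alternatives. SE is the log2 fold change divided by the square root of F. CPM use TMM factors; levels per kb use exon lengths from GENCODE M21. Floors cover counting error only; each library is 1 animal. The members and gene lists were chosen with earlier results of these data known. Named genes were, for each complex, the highest and lowest log2 fold change, the 4 smallest p, the 3 highest levels per length, every gene past the threshold, and the smallest p in each other list.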

Additional observations from a re-analysis of the deposited data

Results flagged for a closer look

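Dixon's criterion was applied to 106 gene and group combinations over both groups, of which 15 were flagged. WT 5 stood apart from the other WT libraries in 14 of these. Only the combinations of WT could flag WT 5, so 106 is not the base for its 14 flags. Chance flags a single combination about 1 in 20 times. The genes varied together in the same libraries, so the 106 are not independent and the count is not a test. The 1 other flag was Myoz1, a skeletal muscle marker, at 1.19 CPM in WT 1 (3.29 to 3.82 in the other WT libraries). Among the 32 genes the WT 5 flags were 10, given here as CPM in WT 5 with the range of the other 4 WT libraries. In complex I, Ndufv1 was 376 (243 to 253) and Ndufv2 was 503 (399 to 410.5). In complex II, Sdha was 629 (429 to 462), Sdhb was 623 (427 to 454) and Sdhd was 301.5 (209.9 to 217). In complex III, Uqcrc2 was 367 (206 to 249.5), Uqcrfs1 was 228 (134 to 146) and Uqcrq was 390.2 (231 to 271). Cox5a of complex IV was 63.8 (32.4 to 39.2), and Atp5a1 of complex V was 817 (573 to 640.3). The remaining 4 were genes abundant in brown adipocytes: Ucp1 at 1437 (414 to 518), Cidea at 963.5 (257 to 396), Cox7a1 at 197 (52.4 to 61.7) and Cox8b at 206 (48.2 to 56.2). Leaving WT 5 out moved the median log2 fold change of the 32 genes from 0.0046 to 0.13, with 0 called.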

How the results depend on the processing

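All 32 genes missed the threshold in 26 of 27 alternatives. The exception was Cox7c, with the skeletal muscle score as covariate (0.74). In that fit the members' median was 0.33, all 7 mitochondrial genes were higher and 1 of the 32 was, beside 1.2% of all genes. The score differs between the groups, so that fit cannot separate it from the group. The number of genes called was 742, and 1295 with DESeq2, 1290 at a threshold of 0.1, 441 with the skeletal muscle score, 432 without WT 1 and WT 2, 415 with the column number, 329 with the replicate number as a block, 123 with the sex score, 34 in the Xist-positive libraries and 458 to 853 when 1 library was left out. The mitochondrial count of 1 fell to 0 with the block, the sex score, the Xist-positive libraries, the column number and without WT 1 and WT 2, and was 0 to 2 when 1 library was left out. Replicate numbers were not taken to pair the samples, since same-numbered deviations correlated between -0.25 and 0.049 and only number 3 correlated best with itself. In all, 144 of 864 log2 fold changes of the 32 genes changed sign, none of them called; 6 genes never did (Atp5d, Cox6c, Cox7b, Cox7c, Ndufs3 and Sdhc). The cause was not tested. The median standard errors beside the covariates were read after seeing the data. The lowest level of any of the 32 genes in a library was 26.7 CPM, for Cox5a, against a floor of at most 0.231 CPM. With the sex score, the sign changed for Adrb3 0.52, Atp5a1 0.15, Atp5b 0.13, Atp5o 0.068, Cidea 0.29, Cox4i1 0.11, Cox5a 0.28, Cox7a1 0.59, Cox8b 0.62, Mylpf -0.054, Ndufa1 0.0014, Ndufs1 0.15, Ndufv1 0.051, Sdhb 0.095, Sdhd 0.16 and Uqcrq 0.16. In the Xist-positive libraries alone, the sign changed for Adrb3 0.53, Atp5a1 0.12, Atp5b 0.097, Atp5o 0.060, Cidea 0.17, Cox4i1 0.087, Cox5a 0.23, Cox7a1 0.48, Cox8b 0.52, Mylpf -0.090, Ndufa1 0.015, Ndufs1 0.15, Ndufv1 0.0050, Sdhb 0.078, Sdhd 0.14 and Uqcrq 0.15. With the skeletal muscle score, the sign changed for Adrb3 0.70, Atp5a1 0.13, Atp5b 0.013, Atp5o 0.20, Cidea 0.34, Cox4i1 0.18, Cox5a 0.37, Cox7a1 0.83, Cox8b 0.97, Ndufa1 0.29, Ndufb6 0.035, Ndufs1 0.13, Ndufv1 0.00080, Ndufv2 0.019, Sdhb 0.17, Sdhd 0.13 and Uqcrq 0.36. With upper-quartile factors, the sign changed for Atp5a1 0.018, Ndufa1 0.018, Ndufs1 0.012 and Uqcrq 0.013. With a filter at 1 CPM in 5 libraries, the sign changed for Atp5a1 0.0011. With the replicate number as a block, the sign changed for Atp5a1 0.022, Mylpf -0.025, Ndufb9 -0.0042 and Ucp1 -0.12. With the number 6 or 7 of the column names as covariate, the sign changed for Atp5a1 0.063, Cox5a 0.060, Cox7a1 0.26, Cox8b 0.13, Ndufa1 0.020, Ndufs1 0.014, Sdhb 0.0082, Sdhd 0.037 and Uqcrq 0.070. With the brown adipocyte score, the sign changed for Atp5a1 0.0087, Ndufs1 0.0015, Ucp1 -0.14 and Uqcrq 0.0072. Without WT 1 and WT 2, the sign changed for Atp5c1 -0.082, Cox5b -0.16, Cox6a1 -0.0016, Ndufa2 -0.10, Ndufa4 -0.087, Ndufa5 -0.056, Ndufb3 -0.14, Ndufb5 -0.11, Ndufb8 -0.12, Ndufb9 -0.18, Ndufs4 -0.10, Ppargc1a -0.15, Sdha -0.075, Ucp1 -0.23, Uqcrc1 -0.14, Uqcrc2 -0.13 and Uqcrfs1 -0.11. With limma voom, the sign changed for Ndufb8 -0.0030, Ucp1 -0.21 and Uqcrc1 -0.014. With a pseudocount of 1, the sign changed for Ucp1 -0.21 and Uqcrc1 -0.0082. With limma trend on the deposited CPM and a pseudocount of 0.5, the sign changed for Ucp1 -0.21 and Uqcrc1 -0.0083. With RLE size factors, the sign changed for Uqcrc1 -0.00046. With DESeq2, the sign changed for Uqcrc1 -0.00034. Over the analyses that left out 1 library log2 fold changes that crossed 0 spanned Adrb3 -0.39 to 0.12, Atp5a1 -0.066 to 0.095, Atp5o -0.11 to 0.019, Cidea -0.51 to 0.19, Cox5a -0.14 to 0.15, Cox5b -0.017 to 0.27 and Cox7a1 -0.28 to 0.53. The next spanned Cox8b -0.39 to 0.54, Mylpf -0.017 to 0.18, Ndufa1 -0.065 to 0.033, Ndufa2 -0.020 to 0.082, Ndufb3 -0.039 to 0.13, Ndufb5 -0.029 to 0.14 and Ndufb8 -0.062 to 0.11. Further ranges were Ndufb9 -0.078 to 0.12, Ndufs1 -0.053 to 0.068, Ppargc1a -0.072 to 0.15, Sdha -0.035 to 0.12, Sdhb -0.11 to 0.050, Sdhd -0.076 to 0.087 and Ucp1 -0.29 to 0.51. The last were Uqcrc1 -0.10 to 0.14, Uqcrc2 -0.053 to 0.18, Uqcrfs1 -0.069 to 0.19 and Uqcrq -0.074 to 0.14.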
